A study of Mus musculus with 4 samples.

Results

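Haematopoietic progenitor cells (HPC) were compared with haematopoietic stem cells of long-term repopulating ability (LT-HSC), the most primitive of the stem and progenitor gates of the study, on 1 Affymetrix mouse array each. The comparison took every probe set that is no control, is annotated to exactly 1 gene symbol and had a signal of at least 120 on at least 1 of these arrays. A probe set is a group of short oligonucleotides read together as 1 signal for a stretch of a transcript. The rule kept 21500 of the 45101 probe sets on the array, and these stand for 12622 of the 18193 genes with such an annotation. Just inside the rule lay a probe set of Cd2ap, with 120 in HPC and 23.5 in LT-HSC, and just outside it one of 9230114K14Rik, with 72.2 and 119.9. Of the 21500 probe sets, 16129 reached 120 on both arrays, 2564 in HPC alone and 2807 in LT-HSC alone.

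Both populations were mouse cells enriched with magnetic beads for the receptor c-Kit and then sorted as living cells without the lineage antigens Ter119, CD3, CD4, CD8, B220, CD11b and Gr-1. HPC carried c-Kit and no Sca-1, while LT-HSC carried c-Kit and Sca-1 but no CD34. Short-term repopulating stem cells (ST-HSC, with Sca-1 and CD34) and bone marrow granulocytes (strong Gr-1, high granularity), also 1 array each, are quoted here only as context. Neither genotype, strain, age nor any treatment of the mice is given in the sources used here. The thawed cells were chosen by their looks and packed, 50 or 100 together, into empty zonae pellucidae, the coats of eggs. RNA of 50 to 200 cells was amplified in 2 rounds, so each array reads a small pool of cells taken once. The arrays were made to see whether the populations had the profiles of their cell types.

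Blood cells descend from rare LT-HSC, most of which rest, and which can renew themselves and rebuild the whole blood system after transplantation. The c-Kit positive, Sca-1 negative gate holds fast-dividing progenitors already committed to granulocytes, monocytes, erythrocytes or megakaryocytes. A neutrophil makes its granule proteins in a set order: the primary granule proteases and myeloperoxidase in the promyelocyte, and the proteins of the secondary and tertiary granules later, when division ends.

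With 1 array per cell type no difference here has a replicate check and no test was possible, so every statement below is about these arrays. The only yardstick of error was the disagreement between probe sets of 1 gene: the standard deviation of their log2 differences was 0.63 (3881 genes, 9898 probe sets). Differences between one sort or amplification and another are not in it. The arrays shared 1 scale, with a trimmed mean of 500 each, and between 48.8% and 52.5% of the probe sets reached 120. Of the 18S ribosomal RNA controls, the middle and 5′ ones stood apart on the LT-HSC array, while the 3′ one was as high in granulocytes (2157) as in LT-HSC (2004). The control near the 5′ end had 16644 in LT-HSC, 508 in HPC, 1333 in ST-HSC and 4677 in granulocytes, and the part of this in the results below was not tested. In RNA from pooled cells, fewer cells of a type and less RNA per cell cannot be told apart.

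HPC had 106 genes at least 4-fold higher than LT-HSC (0.84% of the genes) and 265 at least 4-fold lower (2.1%). Each gene was read from its probe set with the highest mean signal, and signals under 120 were set to this floor, so a fold with 1 side under it is given as "at least". The median log2 difference over all genes was 0.07, with quartiles of −0.42 and 0.47. At 2-fold, 978 genes (7.75%) were higher in HPC and 1242 (9.84%) lower, and these shares are the background for every gene group below. Counted by probe set, 162 (0.753%) were 4-fold higher and 512 (2.38%) 4-fold lower. Lower calls thus outnumbered higher ones, at 71.4% of the 4-fold genes, but with both arrays scaled to a common 75th percentile the share was 57.8%. This scaling moved the all-gene median to 0.24.

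The 4-fold genes were mostly dim. Among probe sets whose mean log2 signal lay between 8 and 9, 2.11% were 4-fold higher and 7.69% 4-fold lower in HPC, and above a mean of 12 the shares were 0.132% and 0.265%. On the lower side, 120 of the 265 genes had an HPC signal under the floor, and on the higher side 36 of the 106 genes had an LT-HSC signal under it. Of 135 lower genes with further probe sets, 33 had at least 1 with the opposite sign, as had 11 of 41 such higher genes. Granulocytes had more signal than both arrays for 30 higher and 37 lower genes. Without these, 76 genes were 4-fold higher and 228 lower.

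**Figure D1:**
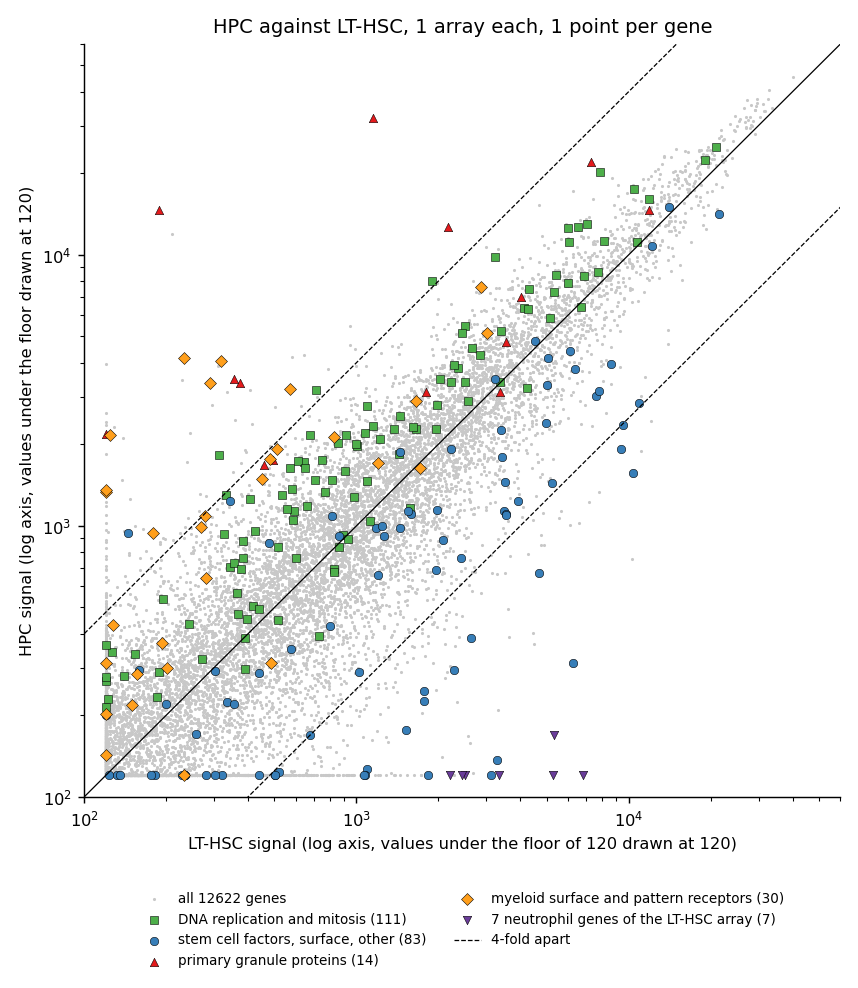
Signal of 12622 genes in LT-HSC (horizontal, log axis) and HPC (vertical, log axis), 1 array each, with signals under 120 drawn at 120. The solid line marks equal signal and the dashed lines 4-fold. Mpo and Ctsg (red triangles) lie far above the upper line, the 7 neutrophil genes (purple) lie far below the lower one, and most genes of replication and mitosis (green) lie a little above the solid line.

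The list of primary granule genes was the clearest group on the HPC side. It also holds genes not particular to that granule, such as Ms4a3 and Nkg7, described below. Of 14 genes, 9 were at least 2-fold higher in HPC and 0 lower, 6 were at least 4-fold higher, and the median log2 difference was 1.85. Mpo, Elane, Prtn3 and Ctsg, which encode myeloperoxidase and the 3 serine proteases of that granule, have a short run of letters in common upstream of their starts. To show it, the 250 bases before each annotated start are printed from RefSeq (mouse assembly GRCm38.p6), 5′ to 3′ on the gene's strand, with every GAGGAA in capitals. These letters form the core at which PU.1, an ETS factor of myeloid cells, is known to bind.
Mpo, chr11:87793534-87793783, plus strand: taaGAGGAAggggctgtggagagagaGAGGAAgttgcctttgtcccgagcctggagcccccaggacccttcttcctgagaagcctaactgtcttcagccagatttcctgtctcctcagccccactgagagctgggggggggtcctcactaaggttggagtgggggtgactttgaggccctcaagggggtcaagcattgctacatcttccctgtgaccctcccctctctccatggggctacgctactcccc
Elane, chr10:79886062-79886311, plus strand: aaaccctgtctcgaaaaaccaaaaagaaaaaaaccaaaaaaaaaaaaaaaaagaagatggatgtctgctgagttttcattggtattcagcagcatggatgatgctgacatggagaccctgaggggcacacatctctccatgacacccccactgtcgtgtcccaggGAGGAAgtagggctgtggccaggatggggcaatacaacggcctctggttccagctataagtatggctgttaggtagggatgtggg
Prtn3, chr10:79879417-79879666, plus strand: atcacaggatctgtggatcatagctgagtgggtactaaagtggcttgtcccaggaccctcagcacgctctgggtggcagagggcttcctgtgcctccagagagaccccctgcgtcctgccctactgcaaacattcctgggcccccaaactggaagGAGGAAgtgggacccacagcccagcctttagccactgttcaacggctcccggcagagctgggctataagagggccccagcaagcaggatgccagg
Ctsg, chr14:56102575-56102824, minus strand: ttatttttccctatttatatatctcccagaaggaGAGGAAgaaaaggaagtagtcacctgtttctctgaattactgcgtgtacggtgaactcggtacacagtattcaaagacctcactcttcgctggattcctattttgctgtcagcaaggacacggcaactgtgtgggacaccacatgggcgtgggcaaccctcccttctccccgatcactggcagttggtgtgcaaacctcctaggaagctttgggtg
The letters stand 247 and 224 bases before the start of Mpo, 85 before that of Elane, 95 before that of Prtn3 and 216 before that of Ctsg. Searched on both strands, GAGGAA occurred in 23.3% of 32851 promoters of this length and in 22.6% of those of genes that passed the rule. It occurred in 29 of 101 promoters of the genes 4-fold higher in HPC (28.7%) and in 68 of 282 of the 4-fold lower ones (24.1%). Of 13 primary granule genes with a promoter in the table, 6 had it. The RUNX core TGTGGT, also searched, was found in 7 of these 13 genes. It was in 14.0% of all promoters and 11.2% of those of genes that passed the rule. AGATAA, at which GATA factors bind, was found in 1 of the 13 genes, and its shares of these promoters were 9.99% and 6.27%. A match describes these letters only and shows no binding.

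Ctsg, which encodes the protease cathepsin G, had the largest difference of all genes that the naming rule took. Its signal was 14683 in HPC, 188 in LT-HSC, 671 in ST-HSC and 27.3 in granulocytes, so HPC lay 78.1-fold above LT-HSC. Mpo, myeloperoxidase, had 32023 in HPC, 1149 in LT-HSC, 18718 in ST-HSC and 246 in granulocytes, a 27.9-fold difference between the first pair. For Mpo the ST-HSC array stood with HPC, while for Ctsg it stood nearer LT-HSC. Elane, neutrophil elastase, had 2181 in HPC and 89.3 in LT-HSC and was at least 18.2-fold higher in HPC. Prtn3, proteinase 3, had 12638 in HPC and 2164 in LT-HSC and differed 5.84-fold. Its LT-HSC signal was thus well above the floor, at a level like the 2425 of ST-HSC.

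The other members followed. Cst7, a cystatin that inhibits cathepsins, was 9.80-fold higher in HPC (3476 against 354) and Ms4a3, a membrane protein of granulocyte-monocyte progenitors, 9.06-fold (3372 against 372). Ctsz, a cathepsin, Nkg7, a membrane protein of cytotoxic granules, and Plac8 were 3.67-fold, 3.55-fold and 3.03-fold higher. The other 5 genes were less than 2-fold apart by their brightest probe sets. Among them Ctsc was higher in HPC (4788 against 3536), but its other 2 probe sets gave log2 differences of −1.41 and −1.01. By the brightest probe sets only Lyz2, the lysozyme of myeloid cells, had less signal in HPC (3122) than in LT-HSC (3366). This small difference turned positive, up to 0.10 on the log2 scale, under another scaling. Lyz2 is also made by mature cells, and granulocytes had 41013.

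The proteins of later granules went the other way, and the LT-HSC array rather than the HPC array had them. Of 12 secondary and tertiary granule genes, 7 were at least 2-fold lower in HPC and 2 higher, with a median of −1.28. Chil3, a chitinase-like protein, had 8.0 in HPC, 5265 in LT-HSC, 3.8 in ST-HSC and 36963 in granulocytes, so HPC was at least 43.9-fold lower than LT-HSC. Ngp, neutrophilic granule protein, had 170 in HPC, 5299 in LT-HSC, 111 in ST-HSC and 52499 in granulocytes, 31.2-fold apart. Lcn2, the iron-sequestering lipocalin 2, was at least 27.8-fold lower in HPC, Ltf, lactoferrin, at least 20.9-fold, and Camp, the antimicrobial cathelicidin, at least 20.4-fold. In all 5 genes the ST-HSC array lay under the floor, and HPC lay under or near it.

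S100a8 and S100a9, which encode the calcium-binding pair of proteins that fills the neutrophil cytoplasm, showed the same order of arrays. S100a8 had 113 in HPC, 6783 in LT-HSC, 144 in ST-HSC and 57218 in granulocytes, and S100a9 had 7.5, 2203, 22.9 and 68994. They were at least 56.5-fold and at least 18.4-fold lower in HPC than in LT-HSC. These 7 genes had between 3.19% and 14.2% of their granulocyte signal on the LT-HSC array.

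The LT-HSC array carried some markers of mature neutrophils and not others. Of 11 such markers, 8 reached the floor in LT-HSC, 4 in HPC, 4 in ST-HSC and 11 in granulocytes. Their summed signal was 23500 in LT-HSC, 1769 in HPC, 3202 in ST-HSC and 474000 in granulocytes. Mmp8, the neutrophil collagenase, had 45532 in granulocytes but 77.4 in LT-HSC, and Mmp9, the gelatinase, had 48874 and 65.8. Cxcr2, the chemokine receptor of mature neutrophils, had 2113 in granulocytes and 34.3 in LT-HSC. The sort excluded cells with Gr-1 or CD11b, and Itgam, which encodes CD11b, lay at 7.9 in LT-HSC, 34.8 in HPC and 2570 in granulocytes. The part of mature cells in the lower genes was not tested.

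A wider set, which includes these 7 genes, was drawn from the granulocyte array. In all, 59 genes had a granulocyte signal of 5000 or more and under 240 in both HPC and ST-HSC. In LT-HSC, 25 of these were under the floor, 26 between 120 and 1000 and 8 at 1000 or more. The 8 were the 7 genes above and Abtb2, with 1730 in LT-HSC and 5366 in granulocytes. Olfm4, a glycoprotein of secondary granules, was among the 25, with 7.6 in LT-HSC and 19934 in granulocytes. The limits of this set and the genes named from it were chosen after the values were seen.

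**Figure D2:**
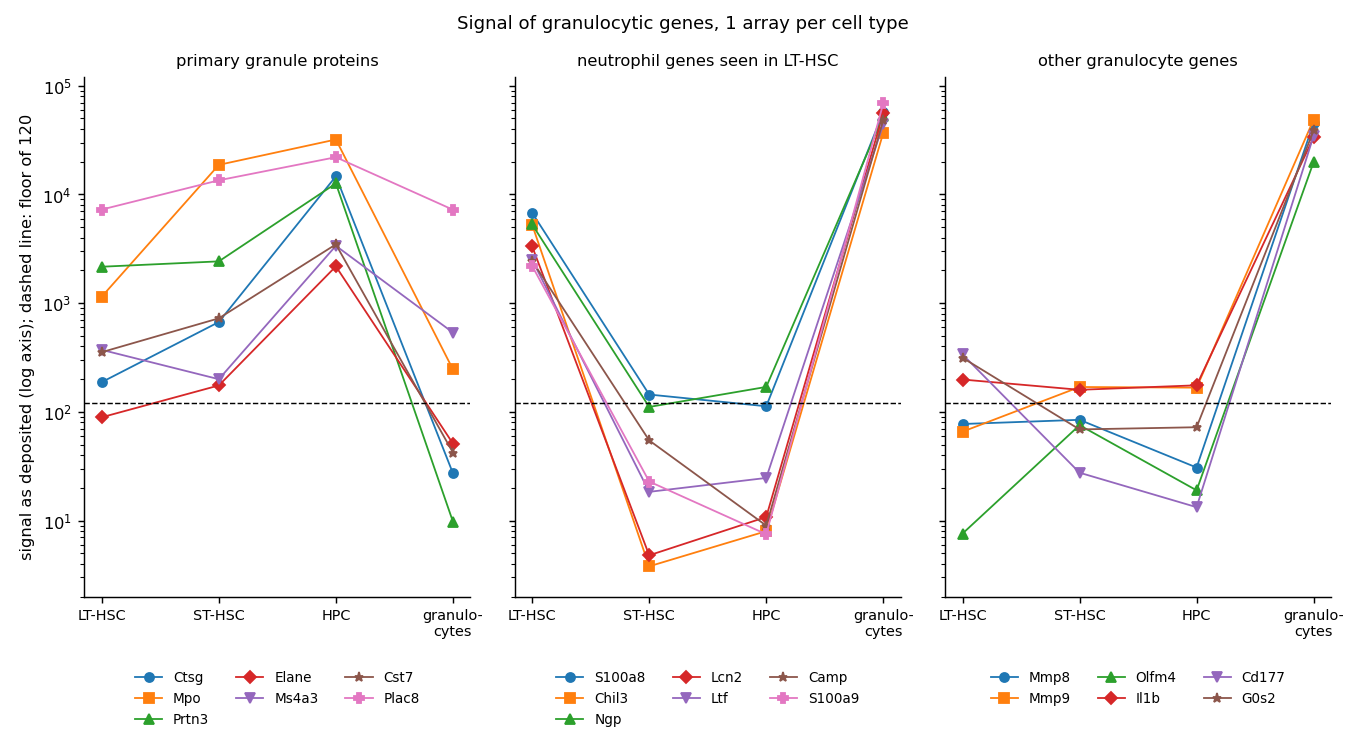
Signal (log axis) on the LT-HSC, ST-HSC, HPC and granulocyte arrays, 1 point per gene and array, with the floor of 120 dashed. Primary granule genes (left) peak in HPC. The 7 neutrophil genes (middle) are high in granulocytes and, at 2203 to 6783, in LT-HSC, while other granulocyte genes (right), such as Mmp8 at 77.4 and G0s2 at 315, are much lower in LT-HSC.

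The promoters of 2 of these genes are shown because both hold TTGCNNAA, letters like those at which C/EBP factors, which drive the late granule genes, are known to bind. They come from the same RefSeq table, with each match on either strand in capitals (TTNNGCAA on the other strand).
Ngp, chr9:110419558-110419807, plus strand: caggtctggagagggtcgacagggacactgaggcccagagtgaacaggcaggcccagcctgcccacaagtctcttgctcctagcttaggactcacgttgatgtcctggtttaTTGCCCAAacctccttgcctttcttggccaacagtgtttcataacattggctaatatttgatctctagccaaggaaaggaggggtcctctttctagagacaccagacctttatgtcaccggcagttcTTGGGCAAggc
Ltf, chr9:111019042-111019291, plus strand: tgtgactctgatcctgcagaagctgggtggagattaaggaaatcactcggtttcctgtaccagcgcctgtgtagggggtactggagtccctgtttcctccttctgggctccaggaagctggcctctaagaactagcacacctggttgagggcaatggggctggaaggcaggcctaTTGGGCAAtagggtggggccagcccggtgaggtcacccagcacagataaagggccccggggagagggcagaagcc
The match stood 138 and 11 bases before the start of Ngp and 75 before that of Ltf. Lcn2 and S100a9 had 1 match each, and S100a8, Camp and Chil3 had none in the 250 bases. Among all promoters 9.56% held the letters, and among promoters of genes that passed the rule 7.74%. The share was 12.9% for genes 4-fold higher in HPC and 8.87% for those 4-fold lower. GAGGAA was also found upstream of S100a8, Ltf and Lcn2, on the other strand. TTGCNNAA in turn was found upstream of 1 of the 13 primary granule genes, Plac8.

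Hp, haptoglobin, was the exception among the late granule genes. It had 2424 in HPC, 22.5 in LT-HSC, 8.9 in ST-HSC and 37301 in granulocytes and was at least 20.2-fold higher in HPC. Cybb, the large subunit of the phagocyte oxidase, was also higher in HPC, 2.90-fold (555 against 192). Cyba, the small subunit of the same enzyme, hardly differed, at 1373 and 1289.

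Receptors and surface proteins of myeloid cells formed the second large group on the HPC side. Of 30 myeloid surface and pattern receptor genes, 18 were at least 2-fold higher in HPC and 0 lower, 8 of them 4-fold, and the median was 1.39. Fcgr3, a receptor for the constant part of antibodies, had 2163 in HPC, 124 in LT-HSC, 51.9 in ST-HSC and 17944 in granulocytes, 17.4-fold apart. Tyrobp, the signalling adaptor of many such receptors, was 12.7-fold higher (4052 against 318). Ly86, the partner of the toll-like relative CD180, was 17.9-fold higher (4155 against 232), and its granulocyte signal was only 553. Anxa3 and Igsf6 were 11.6-fold and at least 11.3-fold higher.

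Tlr2, a sensor of bacterial lipoproteins, was 5.62-fold higher in HPC and Clec7a, the receptor for fungal glucan, 5.28-fold. Itgb2, the beta chain shared by the leukocyte integrins, was 3.75-fold higher (1917 against 511) although Itgam lay under the floor. Cd48, a surface protein used to separate progenitors from stem cells, had 992 in HPC, 270 in LT-HSC, 1274 in ST-HSC and 296 in granulocytes. The CD34 negative gate thus had the lowest Cd48 signal of the stem and progenitor arrays.

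Among cytokine receptors the difference rested on a few genes. Of 25, 4 were at least 2-fold higher in HPC and 2 lower, with a median of 0.17. Csf1r, which binds macrophage colony-stimulating factor, had 11928 in HPC, 210 in LT-HSC, 523 in ST-HSC and 13089 in granulocytes, 56.9-fold apart. Its other 2 probe sets were also higher in HPC, with log2 differences of 1.58 and 4.55. Csf2rb, the shared chain of the receptors for interleukin 3 and granulocyte-macrophage colony-stimulating factor, was 3.07-fold higher (6047 against 1970), but its other probe set was level (314 against 302). Epor, the erythropoietin receptor, was 2.40-fold higher, at 355 against 148. Il6st, the signalling chain of the interleukin 6 receptor, and Il6ra were 2.65-fold and 2.38-fold lower, but each had a probe set of the opposite sign.

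Markers of monocytes and macrophages followed the myeloid receptors. Of 9 that passed the rule, 5 were at least 2-fold higher in HPC and 0 lower, and the median was 1.02. The summed signal of 11 such markers was 19880 in HPC, 5031 in LT-HSC, 4911 in ST-HSC and 83980 in granulocytes. Ccr2, the chemokine receptor of inflammatory monocytes, had 1337 in HPC, 5.5 in LT-HSC, 388 in ST-HSC and 312 in granulocytes and was at least 11.1-fold higher in HPC. Its other 2 probe sets that passed gave smaller log2 differences, 0.40 and 0.90. Cd14, the co-receptor for endotoxin, was 3.67-fold higher (1768 against 482). Cx3cr1, the fractalkine receptor, had 311 in HPC and 116 in LT-HSC.

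Mpeg1, Acod1, Slpi, Tmem156 and Cd300lb were also among the largest differences. Mpeg1, which encodes the pore-forming perforin 2, had 2607 in HPC, 115 in LT-HSC, 652 in ST-HSC and 14427 in granulocytes, at least 21.7-fold higher in HPC. Acod1, the enzyme that makes itaconate, was at least 15.3-fold higher (1840 against 9.3). Slpi, a secreted inhibitor of elastase and cathepsin G, was 17.9-fold higher (2309 against 129). Tmem156 and the receptor gene Cd300lb were at least 32.8-fold and at least 19.6-fold higher. Granulocytes had more signal than HPC for Acod1 (15166), Slpi (34267) and Cd300lb (13249), and less for Tmem156 (1910). Of these genes only Acod1 was under the floor in ST-HSC, with 14.6.

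Transcription factors of myeloid cells did not share this shift. Of 31, 2 were at least 2-fold higher in HPC and 5 lower, and the median was 0.01. Irf8, which directs monocyte and dendritic cell fate, had 10505 in HPC, 3320 in LT-HSC, 2122 in ST-HSC and 653 in granulocytes, 3.16-fold apart. Cebpa, needed for the step to granulocyte-monocyte progenitors, was 2.97-fold higher (856 against 288). Spi1, which encodes PU.1, was nearly equal, at 654 in HPC and 648 in LT-HSC. Stat5a and Irf4 were 2.57-fold and 2.06-fold lower in HPC, and Id3 2.20-fold lower.

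Of 6 markers of mast cells, basophils and eosinophils that passed the rule, 2 were at least 2-fold higher in HPC and 0 lower, with a median of 0.47. Mcpt8, a protease of basophils, had 1096 in HPC, 10.5 in LT-HSC, 126 in ST-HSC and 20.3 in granulocytes and was at least 9.13-fold higher. Cpa3, a carboxypeptidase of mast cells and their progenitors, was 2.44-fold higher (1186 against 486). Fcer1a, the high-affinity receptor for immunoglobulin E, stayed under the floor in both. In sum, 12 markers of these cells gave 3201 in HPC, 985 in LT-HSC, 792 in ST-HSC and 30600 in granulocytes. At the floor or above were 6 of them in HPC, 2 in LT-HSC, 2 in ST-HSC and 4 in granulocytes. The granulocyte sum thus rests on few genes, and Mcpt8 is not among them.

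**Figure D3:**
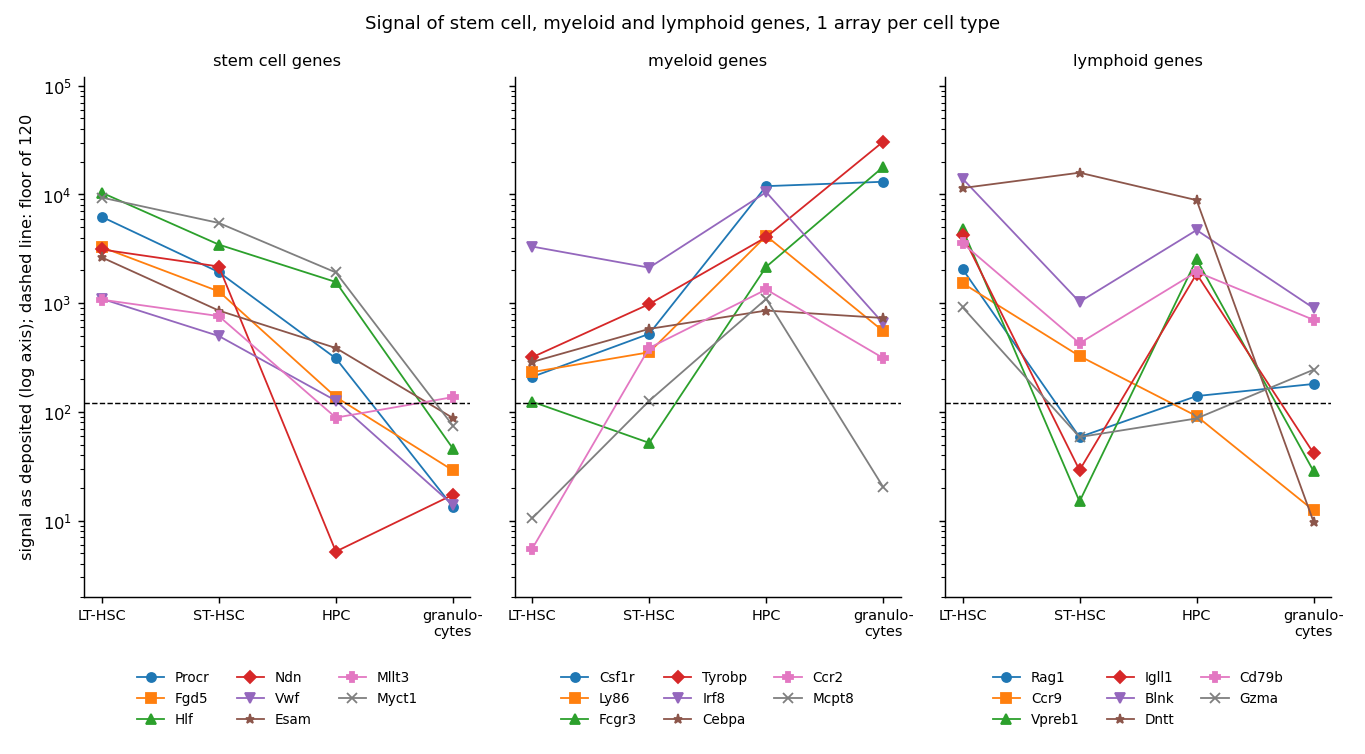
Signal (log axis) on the LT-HSC, ST-HSC, HPC and granulocyte arrays, 1 point per gene and array, with the floor of 120 dashed. Stem cell genes (left) are highest in LT-HSC, such as Procr at 6229 against 311 in HPC. Myeloid genes (middle) are higher in HPC than in LT-HSC. Lymphoid genes (right) vary. Vpreb1 is seen in LT-HSC (4815) and HPC (2532) but not in ST-HSC (15.0), while Dntt and Blnk (1027) are seen in ST-HSC too. Ccr9 (91.5) and Gzma (87.1) lie under the floor in HPC.

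Erythroid and megakaryocytic genes were split. Of 28 erythroid and megakaryocyte-erythroid progenitor genes, 4 were at least 2-fold higher in HPC and 7 lower, with a median of 0.25. At 4-fold 0 were higher and 2 lower, Tfr2 12.3-fold (365 against 4483) and Vamp5 8.58-fold. The other probe set of each was also lower, with log2 differences of −0.76 and −0.91. Gata1, the master factor of red cells and megakaryocytes, had 247 in HPC and 94.8 in LT-HSC and was at least 2.06-fold higher. Car2, carbonic anhydrase 2, went the other way and was 3.15-fold lower (2337 against 7362), with 8268 in ST-HSC. Hemgn, a nuclear factor of red cell precursors, had 13.6 in HPC and 395 in LT-HSC, at least 3.29-fold lower. No mature red cell signal was seen: all 5 measured markers, Hba-a1 and Slc4a1 among them, lay under the floor on both arrays. For haem synthesis the median over 14 genes was 0.15 and Alas1, its first enzyme, was 2.94-fold higher in HPC.

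Of 19 megakaryocyte and platelet genes, 2 were at least 2-fold higher in HPC and 6 lower, with a median of −0.30. The shorter marker list of these cells had 7 genes that passed the rule, 2 higher and 1 lower, with a median of 0.42. Vwf, von Willebrand factor, had 127 in HPC, 1097 in LT-HSC, 499 in ST-HSC and 13.9 in granulocytes, 8.66-fold apart. Mmrn1, a platelet protein that binds factor V, was 8.57-fold lower (177 against 1516). Pf4, platelet factor 4, was at least 3.93-fold lower (32.7 against 472), but ST-HSC had 1444. Selp, the adhesion protein of platelet granules, was at least 5.42-fold higher in HPC (650 against 42.4), so platelet genes did not move as 1 block. Itga2b, the integrin that defines the lineage, differed little, at 597 and 726.

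Genes known from stem cells were lower in HPC more often than genes at large. Among 30 transcription factors of stem cells, 11 were at least 2-fold lower in HPC and 0 higher, with a median of −0.60. Among 29 surface and signalling genes, 12 were lower and 1 higher (median −0.91), and among 24 further signature genes 16 were lower and 1 higher (median −1.75). The shares lower, 36.7%, 41.4% and 66.7%, stand beside the 9.84% of all genes, and 19 members of these lists are among the 265 genes 4-fold lower.

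Procr, the endothelial protein C receptor, is among the most used surface markers of LT-HSC. It had 311 in HPC, 6229 in LT-HSC, 1931 in ST-HSC and 13.4 in granulocytes and was 20-fold lower in HPC. Fgd5, an exchange factor whose locus marks stem cells in reporter mice, had 137 in HPC, 3277 in LT-HSC, 1284 in ST-HSC and 29.0 in granulocytes, 23.9-fold apart. For both genes ST-HSC lay between LT-HSC and HPC. Esam, a junction protein of endothelium and stem cells, was 6.81-fold lower and Pdzk1ip1 6.99-fold. Abcg2, the pump that gives stem cells their dye-excluding side population, was 3.22-fold lower (1102 against 3548). Cxcr4, the receptor that holds stem cells in the marrow, was 3.63-fold lower (1443 against 5240), and Itga6 2.48-fold.

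Hlf, a transcription factor that keeps stem cells at rest, had the largest difference among the factors whose probe sets all had the same sign. It had 1566 in HPC, 10387 in LT-HSC, 3458 in ST-HSC and 46.0 in granulocytes, 6.63-fold apart, and its second probe set gave −3.25 on the log2 scale. Mecom, a regulator of stem cell maintenance, was at least 15.2-fold lower in HPC by 1 probe set (68.0 against 1829), while the other gave a log2 difference of 0.37 the other way. Of the 9 Hox genes of that list that passed the rule, 5 were at least 2-fold lower and 0 higher. They were Hoxb3 (4.20-fold), Hoxa2 (at least 4.18-fold), Hoxb2 (at least 4.17-fold), Hoxa10 (at least 3.67-fold) and Hoxa9 (2.17-fold), while Hoxa3 was 1.84-fold higher with probe sets of both signs. Meis1, the partner of Hoxa9, was 3.07-fold lower (1136 against 3490), Erg 2.53-fold and Gata2 2.07-fold. Lmo2 and Etv6, which stem cells also need, were less than 1.5-fold apart, at 4409 and 6091 for Lmo2.

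Nrp1, a receptor for semaphorins, was the surface gene that ran against the list, with 943 in HPC, 144 in LT-HSC, 43.9 in ST-HSC and 33.6 in granulocytes. It was 6.54-fold higher in HPC, and its second probe set was higher too. Among further signature genes Mllt3 was at least 8.98-fold lower in HPC, Ctnnal1 at least 8.85-fold, Trim47 7.73-fold and Socs2 7.19-fold. Myct1 was 4.88-fold lower (1916 against 9362). Gda, guanine deaminase, had 1234 in HPC, 342 in LT-HSC and 19192 in granulocytes and was the 1 gene of that list at least 2-fold higher in HPC, with its other probe set at 0.19 on the log2 scale.

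The genes of the sorting antigens differed less than those of the stem cell lists. Kit, whose product was on the cells of both gates, was 1.80-fold lower in HPC (3011 against 5416). Cd34 was 2.18-fold higher in HPC (5190 against 2384), and the LT-HSC gate excluded cells with CD34 on their surface. Ly6a, which encodes Sca-1, was not analysed here. Ptprc (CD45) was 1.39-fold higher by its brightest probe set, and the other probe set had the opposite sign. Of the antigens whose carriers the sort left out, Cd8a had 351 in HPC and 320 in LT-HSC, Cd3e had 153 and 40.2, and Cd4 and Itgam lay under the floor in both.

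Fstl1 and Slc16a9 also belong to the 12 largest lower genes. Fstl1, a secreted follistatin-like protein, had 123 in HPC, 2673 in LT-HSC, 203 in ST-HSC and 81.7 in granulocytes, 21.8-fold apart. Slc16a9, a carnitine and creatine transporter, had 29.5 in HPC and 2279 in LT-HSC, at least 19-fold lower, and its other 2 probe sets gave log2 differences of −1.58 and −1.19. For Fstl1, ST-HSC lay far nearer HPC than LT-HSC. Slc16a9 had 338 in ST-HSC, between HPC and LT-HSC, and a further probe set had 273 in both ST-HSC and LT-HSC.

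Imprinted genes, which are read from 1 parental copy and include several brakes on growth, were lower in HPC. Of 25, 11 were at least 2-fold lower and 0 higher, with a median of −0.92. Ndn, necdin, a growth suppressor, had 5.2 in HPC, 3118 in LT-HSC, 2175 in ST-HSC and 17.3 in granulocytes and was at least 26.0-fold lower. All 7 of its other probe sets were lower as well, with log2 differences from −4.38 to −0.02. Grb10, an adaptor that dampens insulin signals, was 15.9-fold lower (210 against 3325; log2 difference of the other probe set −1.58), and Phlda2 at least 5.26-fold. Meg3, a long noncoding RNA, was 7.90-fold lower by its brightest probe set, but 2 of 7 others had the opposite sign. Cdkn1c, the cyclin-dependent kinase inhibitor p57, was 3.99-fold lower (169 against 673). Of these 5 genes Ndn alone had an ST-HSC signal near that of LT-HSC.

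The Gimap genes encode small GTPases of lymphocytes and lie together in 1 cluster of the genome. All 8 were at least 2-fold lower in HPC, 3 of them 4-fold, with a median of −1.74. Gimap7 had 78.5 in HPC, 924 in LT-HSC, 771 in ST-HSC and 182 in granulocytes, at least 7.70-fold apart. Gimap8 was 6.13-fold lower and Gimap9 4.68-fold, while Gimap5 had the smallest difference, 2.09-fold (307 against 641).

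Lymphoid genes were higher in LT-HSC than in HPC, and several were not seen in ST-HSC. Of 27 lymphoid priming genes, 10 were at least 2-fold lower in HPC and 1 higher, with a median of −0.49. Rag1, the recombinase of antigen receptor genes, had 140 in HPC, 2062 in LT-HSC, 58.7 in ST-HSC and 181 in granulocytes, 14.7-fold apart. Rag2, its partner, was at least 3.34-fold lower in HPC (83.6 against 400). Ccr9, a chemokine receptor of cells that seed the thymus, had 91.5 in HPC, 326 in ST-HSC and 1529 in LT-HSC, at least 12.7-fold apart. Blnk, an adaptor of the B cell receptor, was 2.98-fold lower (4704 against 14001), and Lef1 2.44-fold. Dntt, the template-free DNA polymerase of early lymphoid cells, was high on all but the granulocyte array, with 15858 in ST-HSC, 11455 in LT-HSC and 8862 in HPC.

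Markers of the B lineage were present in both populations. Of 7 that passed the rule, 2 were at least 2-fold lower in HPC and 0 higher, with a median of −0.875. In all, 5 lay below 0 and 2 above, among the latter Vpreb3 (376 in HPC, 270 in LT-HSC). Vpreb1, part of the surrogate light chain of the pre-B cell receptor, had 2532 in HPC, 4815 in LT-HSC, 15.0 in ST-HSC and 28.4 in granulocytes. Igll1, its partner, had 1862, 4234, 29.1 and 41.6 on these arrays. The summed signal of 8 B lineage markers was 7180 in HPC, 14350 in LT-HSC, 678 in ST-HSC and 1755 in granulocytes. Of these markers 7 reached the floor in LT-HSC, 6 in HPC and 1 in ST-HSC, although the sort excluded cells with B220. Pax5, which commits cells to the lineage, lay near the floor, with 86.2 in HPC and 187 in LT-HSC. The part of B lineage cells in the lymphoid differences was not tested. Gzma, a protease of cytotoxic lymphocytes, had 87.1 in HPC, 58.7 in ST-HSC and 918 in LT-HSC, while Cd3e and Cd3g stayed under the floor in LT-HSC.

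**Figure D4:**
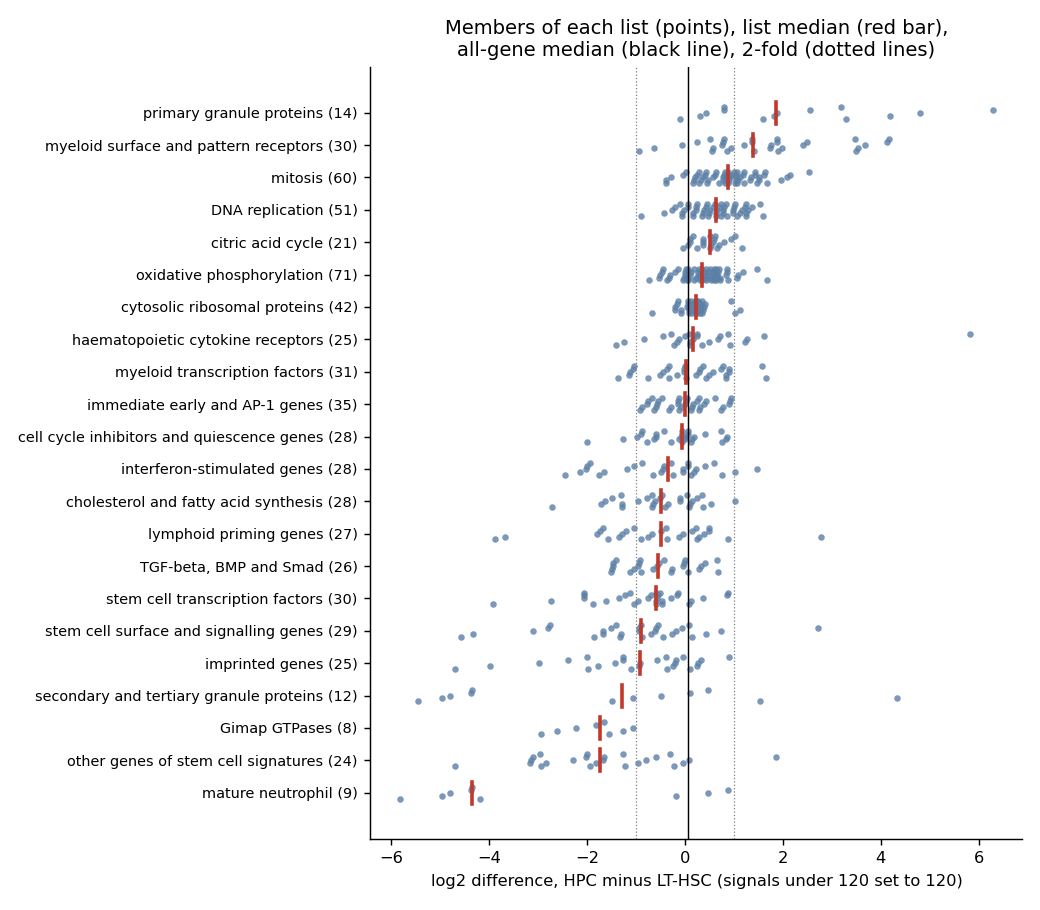
Log2 difference, HPC minus LT-HSC (horizontal), of every gene that passed the rule in 22 gene lists (vertical, number of genes in brackets). Points are genes, red bars list medians, the black line the all-gene median of 0.07 and dotted lines 2-fold. Primary granule genes have a median of 1.85, mature neutrophil markers of −4.35, and the stem cell, imprinted and Gimap lists lie left of 0.

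Cell division genes were higher in HPC as a broad, shallow shift. Of 60 mitosis genes, 25 were at least 2-fold higher in HPC and 0 lower, 56 had a difference above 0, and the median was 0.88. Of 51 DNA replication genes, 12 were at least 2-fold higher and 0 lower, 43 lay above 0, and the median was 0.63. Only 3 of these genes, all of mitosis, reached 4-fold. Kif20b, a mitotic kinesin, had 1819 in HPC, 312 in LT-HSC, 378 in ST-HSC and 18.9 in granulocytes, 5.82-fold apart. Mad2l1, of the spindle checkpoint, was 4.44-fold higher (3166 against 713) and Cdca5, sororin, which holds sister chromatids together, 4.22-fold (8015 against 1900). In both, ST-HSC had about the HPC signal, with 2236 and 8527.

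Fen1, the nuclease that trims Okazaki fragments, was 3.03-fold higher in HPC (9810 against 3241), and its second probe set gave the same log2 difference of 1.60. Cdt1, which loads the replicative helicase, was 2.59-fold higher (20274 against 7818) and Pola1, of the primase complex, 2.42-fold (1295 against 534). Cdc45 was 2.88-fold higher by 1 probe set, and another had the opposite sign. Orc5, of the origin recognition complex, went the other way, 1.85-fold lower. Cdc20, the activator of anaphase, had 3224 in HPC and 4244 in LT-HSC, and so not every mitotic gene was higher.

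Regulators of entry into the cycle differed less. Of 22 G1 cyclin, kinase and E2F genes, 4 were at least 2-fold higher in HPC and 0 lower (median 0.10). E2f8 was 2.94-fold and Rbl1 2.83-fold higher. Cdk6, the G1 kinase whose level sets how fast stem cells leave rest, was 2.03-fold higher (13480 against 6634). Its second probe set was nearly level, at 4836 against 4089, a log2 difference of 0.24. Of 28 inhibitors and quiescence genes, 2 were lower and 0 higher (median −0.06), namely Cdkn1c, above, and the remodeler Smarca2, 2.40-fold. Foxo3, a guardian of resting stem cells, was level, at 7259 and 7307.

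**Figure D5:**
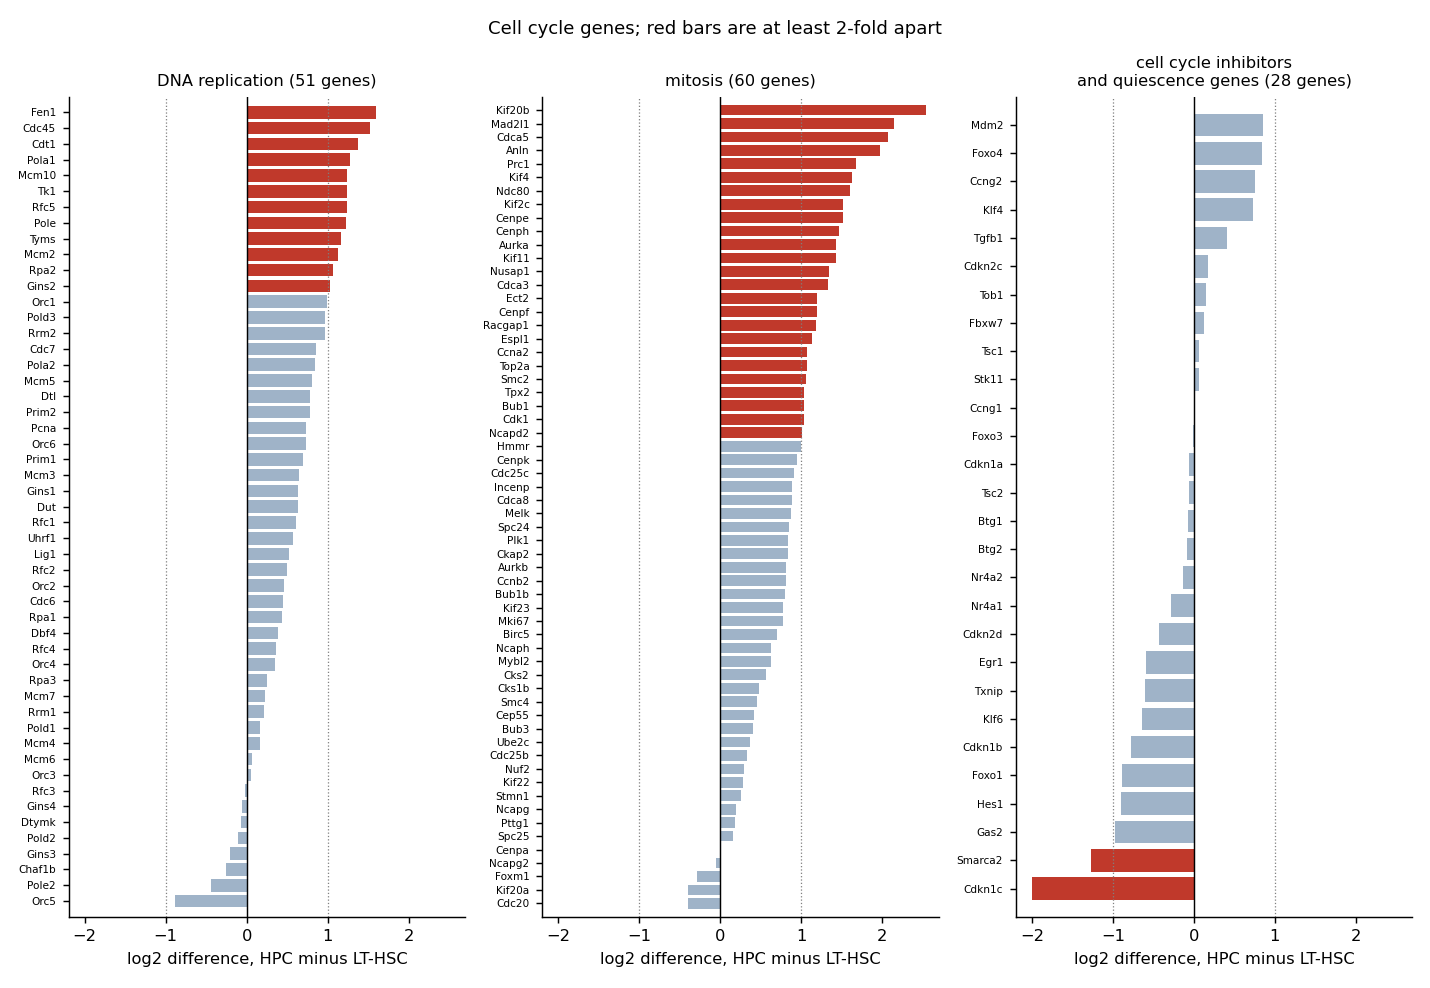
Log2 difference, HPC minus LT-HSC (horizontal), of each gene of DNA replication (51), mitosis (60) and the inhibitors and quiescence genes (28), sorted within each panel. Red bars are at least 2-fold apart. Bars of both division lists point mostly right, with Kif20b the longest, while those of the third panel lie on both sides of 0 and Cdkn1c is the longest to the left.

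Genes of energy metabolism had medians a little above that of all genes. Of 71 genes of oxidative phosphorylation, 5 were at least 2-fold higher and 0 lower, and 57 lay above 0 (median 0.35). Cox6c, a subunit of cytochrome oxidase, was 3.21-fold higher (4572 against 1423), and Cycs, cytochrome c, 2.75-fold (17178 against 6243). Of 21 citric acid cycle genes, 20 lay above 0, with a median of 0.52. The shares at 2-fold, 7.04% and 9.52%, were near the 7.75% of all genes. For protein synthesis the medians were 0.22 over 42 ribosomal protein genes, 0.35 over 51 genes of ribosome assembly and 0.16 over 45 of translation, with 4.76%, 3.92% and 4.44% at least 2-fold higher. These shares are under that of all genes, and all probe sets with a mean log2 signal above 12 had a median of 0.14. Nop56, of the particles that modify ribosomal RNA, was 2.94-fold higher in HPC, and its other probe set gave a log2 difference of 0.52.

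Glycolytic genes went both ways, with hexokinases on either side. Of 27, 3 were at least 2-fold higher in HPC and 7 lower, with a median of 0.26 that became −0.34 where the brighter signal had to reach 500. The hexokinase Hk3 was 4.05-fold higher (2301 against 568) and Hk2 3.60-fold (1966 against 546), but Hk1 was 2.00-fold lower (2630 against 5263). Pdk4, a pyruvate dehydrogenase kinase, had 9.1 in HPC and 784 in LT-HSC, at least 6.53-fold lower. Ldhb, a lactate dehydrogenase chain, was 3.69-fold lower (897 against 3313), and its other 3 probe sets were lower too. Pgk1, a step shared by all cells, differed 1.45-fold.

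Of 28 genes of cholesterol and fatty acid synthesis, 7 were at least 2-fold lower in HPC and 1 higher, with a median of −0.49. Sqle, squalene epoxidase, was 3.11-fold lower (1117 against 3477), Fdft1, squalene synthase, 2.80-fold and Insig1, the sterol sensor, 2.45-fold. Nqo1, a quinone reductase, was at least 5.12-fold lower (17.3 against 614), while ST-HSC had 722. Gmps and Umps, of nucleotide synthesis, were 2.39-fold and 2.37-fold higher in HPC.

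Signalling and interferon genes leaned to LT-HSC. Of 26 genes of the TGF-beta and BMP pathways, which keep stem cells at rest, 7 were at least 2-fold lower in HPC and 0 higher (median −0.56). Tgfbr3, the co-receptor betaglycan, was 2.85-fold lower (688 against 1962) and Bmpr2, a BMP receptor, 2.82-fold (2368 against 6686). Tgfbr2, the main receptor, was 1.23-fold apart. Of 28 interferon-stimulated genes, 9 were lower and 2 higher, with a median of −0.35. Ifitm1 and Ifitm3, which block viral entry and are high in stem cells, were 4.04-fold and 3.85-fold lower (2360 against 9544 and 2829 against 10890). Bst2, tetherin, was at least 2.77-fold higher in HPC (332 against 76.6).

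Adhesion genes went both ways. Of 34, 8 were at least 2-fold higher in HPC and 9 lower (median −0.04). Among the higher ones were the leukocyte integrin genes Itgb2, Itgb7 (3.31-fold) and Itgax (at least 3.10-fold), and also Selp (at least 5.42-fold). Among the lower ones were the endothelial adhesion genes Icam2 (5.53-fold, 162 against 894), F11r (4.35-fold) and Esam. The integrin gene Itga5 was lower too, 5.81-fold, but had a probe set of the opposite sign. Of 35 Notch and Wnt genes 3 were higher and 6 lower, among the latter the ligand gene Jag2, 4.00-fold.

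Nuclear noncoding RNAs included a gene whose probe sets all pointed the same way but by very different amounts. Malat1 had 925 in HPC, 4783 in LT-HSC, 4117 in ST-HSC and 6216 in granulocytes by its brightest probe set, 5.17-fold apart. Its other 6 gave log2 differences from −5.50 to −0.59. Neat1, the scaffold of paraspeckles, was 3.54-fold lower in HPC by 1 probe set and of the opposite sign by the other. The Snhg genes, hosts of small nucleolar RNAs, differed less, such as Snhg6 at 8306 and 8012.

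The remaining lists differed in their shares at 2-fold, which for all genes were 7.75% higher and 9.84% lower. Of 35 immediate early genes, 0 were so in either direction and the median was 0.00. Of 33 chaperone genes 2 were higher and 1 lower, but 28 lay above 0 and the median was 0.37. Of 11 MHC class I and antigen processing genes only Tap2, of the peptide transporter, was 2-fold apart (2.54-fold lower). Of 9 class II genes 2 were lower, H2-Aa 2.80-fold and H2-Ea 2.75-fold, and 2 higher, H2-DMa 2.42-fold and H2-DMb2 2.13-fold. The class II shares were thus 22.2% in each direction, in a short list. Of 28 Polycomb and DNA methylation genes 3 were lower, Tet1, Phc1 and Cbx7, the last with a probe set of the opposite sign. Of 22 genes of the Bcl2 family and apoptosis 4 were higher (18.2%) and 1 lower. The higher ones were led by Pmaip1, which encodes the death inducer Noxa, at 2.90-fold.

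Markers of oocytes, whose coats held the cells, and of marrow stroma were also summed. The summed signal of 11 oocyte markers was 627 in HPC and 927 in LT-HSC, with 2 of them at the floor or above on each, and Zp3, which encodes a protein of the coat, had 19.2 and 22.5. For 10 stromal and endothelial markers the sums were 1394 and 1996, with 6 at the floor or above in HPC and 4 in LT-HSC. Cxcl12 and Cdh5 lay under it on both, and Col1a2, of collagen I, had 285 in HPC and 714 in LT-HSC. For 8 cumulus cell markers the sums were 1323 and 894. Inhba had 35.5 in HPC and 459 in LT-HSC, Ptgs2 527 and 38.2, and granulocytes had more of either, with 6566 and 1056.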

How the data were processed

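RNA of mouse HPC, LT-HSC, ST-HSC and granulocytes was read on single-colour Affymetrix arrays, 1 array per cell type. The authors deposited 1 linear intensity per probe set. Which software summarised the probes is not given in the sources used here. Per the labels' protocols, the RNA of 50 to 200 cells was amplified linearly in 2 rounds and labelled through aminoallyl groups. Such amplification favours the 3′ end of transcripts and, from few cells, adds noise that differs between arrays.

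Intensity values were used as deposited, since the trimmed mean (2% cut at each end) was 500 on every array. Of 45101 probe sets, 64 controls were left out. The platform annotation paired 34945 with 1 symbol and 932 with several, and 9160 had no usable symbol. By Entrez number 34741 of those with 1 symbol were found in RefSeq (GRCm38.p6), and no symbol changed. Intensities under 120 were set to 120 before log2, the difference was HPC minus LT-HSC, and a gene was read from whichever of its probe sets had the highest log2 signal averaged over both arrays. No test could be run, so no p-value is given. Groups of genes are described by counts at 2-fold and medians beside those of all 12622 genes. Of 1296 genes in 40 theme and 10 marker lists, 124 have no probe set with 1 symbol and are not analysed here, and 1077 passed the rule.

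Named genes were taken from the 12 with the largest difference in each direction, if their brighter signal reached the 75th percentile of its array and their other probe sets had the same sign. From each list came up to 4 members per direction at 2-fold or more and bright members with a small difference, and all sorting antigens with a probe set were named. Another 49 genes, and some under 120 on both arrays, were named as examples after their values were seen. The members and lists were chosen with earlier results of these data known. Promoters are the 250 bases before each start in the RefSeq table, searched on both strands, and 10225 member genes have one. The counting was tested on simulated data. Alternatives were the floor, the scaling, the choice of probe set and the minimum signal, and, added after seeing the data, the genes without those brighter in granulocytes than on both arrays. Python 3.11.15 was used with pandas 2.3.3, numpy 2.4.6 and matplotlib 3.10.9.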

Additional observations from a re-analysis of the deposited data

How the results depend on the processing

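Each cell type has 1 array here, so no array could be left out and no paired analysis was possible. The counts depended most on the floor. With a floor of 60, 199 genes were at least 4-fold higher in HPC and 429 lower, and with a floor of 240 the counts were 62 and 146, beside 106 and 265 at 120. Under the other 8 alternatives the counts ran from 77 to 155 and from 184 to 269. Scaling moved the all-gene median from 0.07 to 0.24 (common 75th percentile), 0.11 (quantile normalization) or 0.19 (hybridization controls), and the share of lower genes from 71.4% to 57.8%, 63.8% and 61.8%. Of the named genes at least 2-fold apart, 3 changed sign, each with another probe set: Il6ra to 0.22 and Mecom to 0.37 with the first probe set by name, and Meg3 to 0.16 without probe sets that can match several transcripts. Of those less than 2-fold apart, Ptprc (to −0.60), Etv6 (to −0.45), Hoxa3 (to −0.91), Lyz2, Foxo3 and Snhg6 changed sign under some probe set choice or scaling. The medians of the lists of secondary and tertiary granule genes, of imprinted genes and of 3 marker lists moved by more than 0.63 under another floor or minimum signal, each without a change of sign. Medians near 0 (MHC class I and II, Notch and Wnt, adhesion, quiescence, fatty acid oxidation, immediate early genes, myeloid transcription factors, noncoding RNAs) changed sign under some scalings or probe set choices, as did the glycolysis median. The causes were not tested. Signals near the floor and small pools of cells limit the dim genes most.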

Other observations

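Genes outside the lists also lay far apart, and the following were chosen after their values were seen. Among the genes higher in HPC, F13a1, the A chain of coagulation factor XIII, had 2111 in HPC, 138 in LT-HSC, 298 in ST-HSC and 151 in granulocytes, 15.2-fold apart. Lpl, lipoprotein lipase, was at least 8.54-fold higher (1025 against 18.2), and Clec4d, a lectin receptor of phagocytes, at least 10.2-fold (1226 against 19). Hpse, heparanase, was 7.20-fold higher, with 1713 in HPC, 54.8 in ST-HSC and 238 in LT-HSC.

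Among the genes lower in HPC, Col4a1, a chain of basement membrane collagen, had 168 in HPC, 2573 in LT-HSC, 1052 in ST-HSC and 195 in granulocytes, 15.3-fold apart, while its other probe set gave a log2 difference of only −1.58. Tgm2, transglutaminase 2, was 9.31-fold lower in HPC (390 against 3636), and all 4 of its other probe sets were lower, with log2 differences from −3.67 to −0.21. Fgfr1, a fibroblast growth factor receptor, was at least 8.93-fold lower (59.5 against 1072), and Ptch1, the Hedgehog receptor, 7.10-fold (247 against 1757), with 1208 in ST-HSC. Krt18, a keratin of simple epithelia, was 6.40-fold lower (1026 against 6559). Tmem40 had 754 in HPC, 10311 in LT-HSC and 14744 in granulocytes, and its 3 probe sets gave log2 differences from −4.10 to −3.56.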
